A study of Mus musculus with 18 samples.

Results

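The family of miR-28, miR-151 and miR-708 is represented here by 6 mature miRNAs from 3 hairpins: mmu-miR-28a-5p and mmu-miR-28a-3p, mmu-miR-151-5p and mmu-miR-151-3p, and mmu-miR-708-5p and mmu-miR-708-3p. They were picked by name, as the rows of the count table that carry these names, with earlier results of these data known. Each had 1 row, and they are 6 of the 1907 mature miRNAs in the table, of which 1232 had a read. Small RNA from NIH/3T3, a line of mouse fibroblasts, was sequenced before (input) and after immunoprecipitation (IP) with a mouse monoclonal antibody against pseudouridine (Ψ). Wild-type cells (WT) were set beside cells taken at day 3 (KD3) or day 6 (KD6) of Pus1 knockdown (KD). Pus1 encodes a Ψ synthase, and the study's supplement describes the treatment as siRNA. Each of the 6 groups (WT input, WT IP, KD3 input, KD3 IP, KD6 input and KD6 IP) had 3 libraries with the letters A, B and C, 18 in all. The genotype of the parent line was shared by all groups, and no treatment is given for WT cells. Nothing in the labels says that the letters are separate cultures, so p-values measure the spread between these libraries, which may be technical.

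A miRNA hairpin is cut into a short duplex whose strands come from its 5′ arm (5p) and its 3′ arm (3p). An Argonaute protein keeps one strand as the guide, which pairs with target mRNAs mainly through its seed, bases 2 to 8, and the other strand is usually degraded. The ratio of the arms in a library describes how its reads divide between the strands, and it does not depend on how libraries are scaled to each other. Ψ is an isomer of uridine, made in RNA that has already been transcribed. The comparisons asked whether the antibody recovered both arms of these hairpins alike, and whether recovery changed after knockdown of Pus1.

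The hairpins lie in introns of protein-coding genes and on the same strand as their hosts (GRCm38, GENCODE annotation). Mir28a lies at chr16:24827855-24827940 on the plus strand in Lpp, which encodes a LIM domain protein of focal adhesions. Mir151 lies at chr15:73254815-73254882 on the minus strand in Ptk2, the gene of focal adhesion kinase, and also in an intron of 1700085D07Rik, a noncoding gene on the opposite strand. Mir708 lies at chr7:96249424-96249532 on the plus strand in Tenm4, which encodes a teneurin, a transmembrane protein.

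Mature sequences for 4 of the 6 members, from RefSeq on GRCm38.p6, are shown because they define who shares a seed with whom. Capitals mark the seed. The related miR-28b is included for its near identity to miR-28a-5p.
miR-28a-5p: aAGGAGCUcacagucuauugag
miR-708-5p: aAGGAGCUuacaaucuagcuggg
miR-28b: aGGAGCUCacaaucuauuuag
miR-28a-3p: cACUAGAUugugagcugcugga
miR-708-3p: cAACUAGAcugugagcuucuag

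The 5p arms of miR-28a and miR-708 have the same seed. Over their first 22 bases they are identical at 16, and from base 1 at the 5′ end of miR-28a-5p the differences are C9U, G13A, U18G, U19C, G20U and A21G. Their 3p arms do not share a seed, because miR-708-3p is displaced by 1 base: 17 of 21 positions are identical when base 1 of miR-28a-3p is set against base 2 of miR-708-3p, and 2 of 22 when both start at base 1. miR-28b matches miR-28a-5p from its base 2 onwards at 19 of 21 positions. Its seed is displaced by that base, and among the 1623 mature miRNAs of the count table with a sequence, no other had the seed of one of the 4 sequenced members. In uridines, which are the bases that can become Ψ, the arms are close: 5 in miR-28a-5p, 6 in miR-28a-3p, 5 in miR-708-5p and 6 in miR-708-3p. The mature sequences lie at chr16:24827868-24827889 and chr16:24827908-24827929 for miR-28a, and at chr7:96249450-96249472 and chr7:96249496-96249517 for miR-708.

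Depth set limits on these values. Replicate A of the KD6 input held 241109 mapped reads and the other 17 libraries between 3989031 and 15099781. Reads outside miRNA rows made up 5.47% to 9.96% of mapped reads in inputs and 14.8% to 38.2% in IP. Levels are given as CPM, counts scaled to the miRNA reads of the library and between libraries by median ratios. All 6 members passed the filter on low counts, which kept 550 miRNAs. For miR-708-5p this rested on the inputs, where 8 of 9 libraries had at least 10 reads, against 0 of 9 IP libraries. For miR-708-3p the counts were 8 of 9 and 4 of 9. The rule for passing thus favours a difference for the miR-708 arms, and their calls are read with that in mind.

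By summed reads, the 3p arm was the more abundant arm of all 3 hairpins. Summed over the 18 libraries, miR-28a-3p had 74194 estimated reads and miR-28a-5p 23613. For miR-151 the sums were 252712 reads of the 3p arm and 18886 of the 5p arm. For miR-708 they were 1637 and 319. The 3p arm was the larger in 18 of 18 libraries for miR-28a and for miR-151, and in 17 of 18 for miR-708. Of the 226 hairpins for which both arms could be compared, 114 (50.4%) had more 3p than 5p reads, and 63 (27.9%) did in all 18 libraries.

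miR-151-3p was the most abundant member in every library. In WT input it was at 1694, 1923 and 1877 CPM in replicates A, B and C, and after IP at 3357, 3243 and 3472 CPM. The KD3 input libraries were at 1369, 1415 and 1562 CPM, and the KD3 IP libraries at 2452, 2612 and 1933 CPM. In both conditions every IP library was above every input library. In KD6 the input libraries were at 3189, 1535 and 1270 CPM and the IP libraries at 2732, 3331 and 2576 CPM, so that the shallow replicate A of the input lay among the IP libraries. By group means, the order was WT IP, KD6 IP, KD3 IP, KD6 input, WT input and KD3 input, and of these neighbours WT input (1832 ± 121, SD, n = 3) and KD3 input (1449 ± 101) did not overlap, while the others did.

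miR-151-5p, from the other arm of the same hairpin, was far more variable between libraries of one group. It was at 42.3, 118 and 224 CPM in replicates A, B and C of WT input, at 79.6, 116 and 181 CPM in KD3 input and at 19.7, 86.8 and 435 CPM in KD6 input. The value of 19.7 CPM rests on 4 reads. The IP libraries were at 148, 133 and 112 CPM in WT, 65.1, 195 and 75.8 CPM in KD3 and 55.8, 35.6 and 109 CPM in KD6. IP and input overlapped in all 3 conditions, and every group overlapped its neighbour in the order of means. Replicate A was the lowest and replicate C the highest in each of the input groups.

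miR-28a-5p had the same order of letters in the inputs, at 142, 186 and 216 CPM in WT, 204, 223 and 278 CPM in KD3 and 168, 188 and 246 CPM in KD6. This order was noticed after the values were seen. It held for 19 of 550 miRNAs (3.45%), 2 of them members, and 44 (8%) had one and the same order of letters, whichever it was, in the 3 input groups. The IP libraries did not follow it, with 127, 139 and 107 CPM in WT, 149, 122 and 119 CPM in KD3 and 82.9, 172 and 79.9 CPM in KD6. IP lay below input in every library of WT and KD3, and in KD6 replicate B of the IP (172 CPM) was above replicate A of the input.

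miR-28a-3p lay between 479 and 802 CPM in every library. Its input values were 551, 587 and 511 CPM in WT, 507, 525 and 671 CPM in KD3 and 578, 480 and 488 CPM in KD6. The IP values were 695, 621 and 724 CPM in WT, 706, 802 and 620 CPM in KD3 and 479, 530.5 and 713 CPM in KD6. The WT IP libraries were all above the WT inputs, the groups overlapped in KD3 and KD6, and every neighbour in the order of means overlapped.

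The miR-708 arms were rare. miR-708-3p was at 15.02, 13.2 and 16.4 CPM in WT input, 19.0, 17.4 and 25.1 CPM in KD3 input and 39.5, 15.4 and 15.6 CPM in KD6 input. The value of 39.5 CPM rests on 8 reads in the shallow replicate A. The IP libraries were at 6.92, 0.93 and 1.21 CPM in WT, 1.495, 1.51 and 2.07 CPM in KD3 and 0, 4.57 and 2.41 CPM in KD6. Every IP library was below every input library of its condition. The value of 0 in replicate A of the KD6 IP allows a level of up to 1.21 CPM (3 reads, a limit for counting error only).

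miR-708-5p was the rarest member, at 2.68, 2.76 and 2.14 CPM in WT input, 3.45, 2.18 and 3.12 CPM in KD3 input and 0, 5.59 and 4.51 CPM in KD6 input. The IP libraries were at 0.99, 0.37 and 0 CPM in WT, 1.495, 1.13 and 0.95 CPM in KD3 and 3.64, 0 and 0.19 CPM in KD6. IP was below input in every library of WT and KD3. The 0 in replicate A of the KD6 input allows up to 14.8 CPM, more than any level measured for this arm, and therefore says nothing of its abundance there. In replicate C of the WT IP and replicate B of the KD6 IP a count of 0 allows up to 0.45 and 1.37 CPM.

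**Figure D1:**
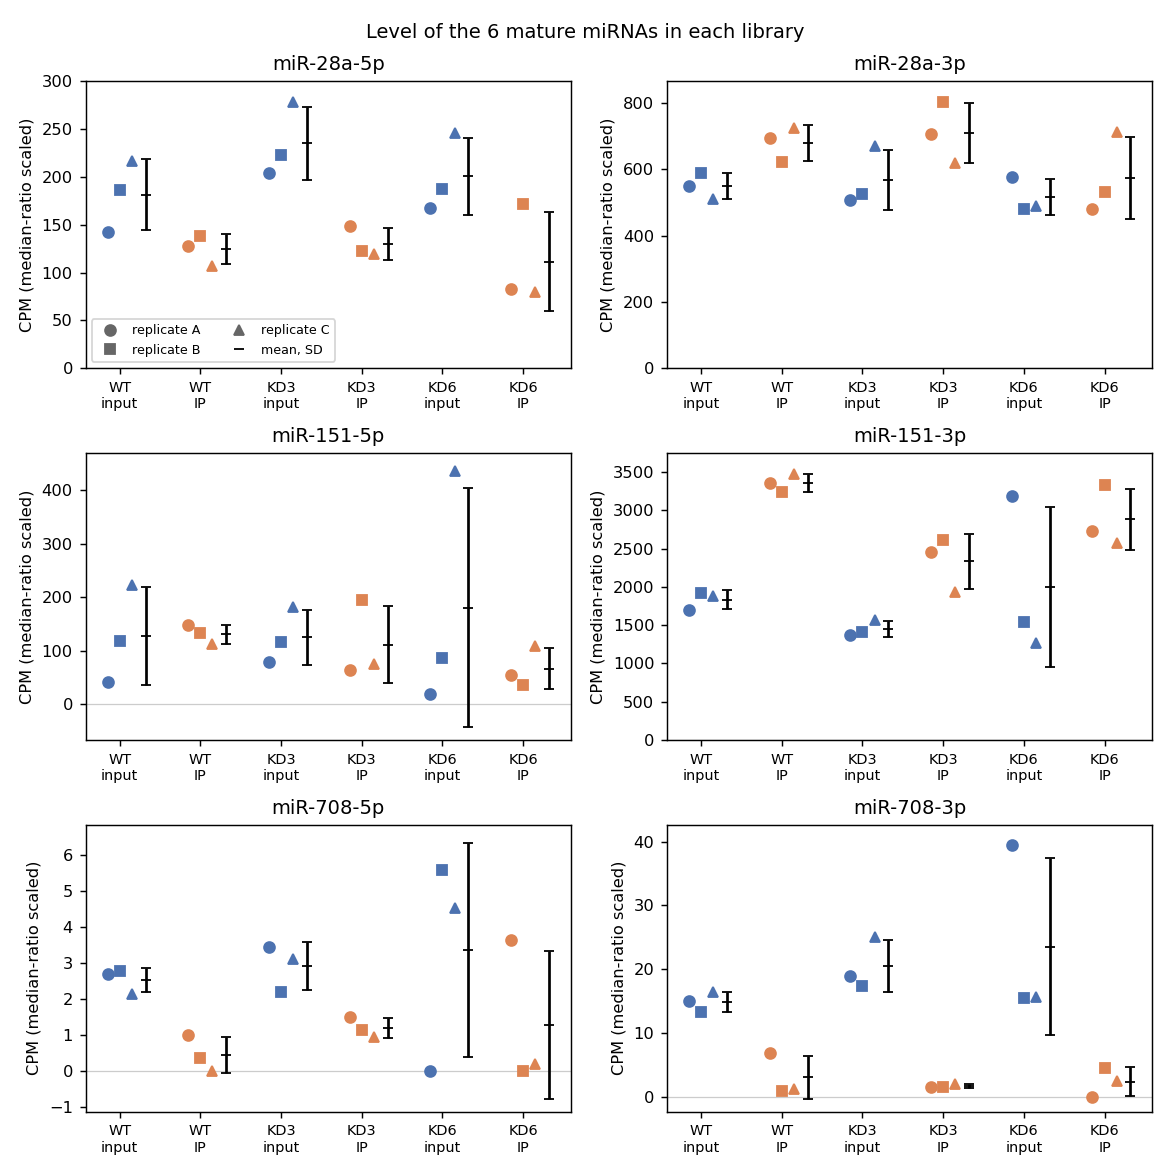
Level of each member in CPM (y axis, linear, scaled between libraries by median ratios) in the 6 groups, with input in blue and IP in orange, 1 point per library (circle, A; square, B; triangle, C) and the mean ± SD of 3 libraries as a bar. In WT cells miR-151-3p lies between 3243 and 3472 CPM after IP against 1694 to 1923 CPM before it, and miR-708-3p between 0.93 and 6.92 CPM after IP against 13.2 to 16.4 CPM before it. For both miR-708 arms, passing the filter on low counts leaned on the inputs, which favours a lower value in IP.

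The first comparison was of IP with input within each condition, as log2 ratios from a model fitted to all 550 miRNAs (edgeR quasi-likelihood test, Benjamini-Hochberg adjustment over all miRNAs tested, threshold 0.05). In WT, 3 of the 6 members passed, miR-151-3p higher in IP and both miR-708 arms lower. In KD3, 3 passed, miR-151-3p higher and miR-28a-5p and miR-708-3p lower. In KD6, 5 passed, all but miR-28a-3p, with miR-151-3p higher and the other 4 lower. Leaving out the miR-708 arms, whose passing of the filter leaned on the inputs, 1 of the other 4 passed in WT, 2 in KD3 and 3 in KD6. These counts stand against a background in which most miRNAs passed. Of all miRNAs tested, 68.9% passed in WT (31.5% higher in IP and 37.5% lower), 70.5% in KD3 (34.4% higher and 36.2% lower) and 71.3% in KD6 (35.8% higher and 35.5% lower). IP libraries stood apart from the inputs, without overlap, for 76% of miRNAs in WT, 75.5% in KD3 and 59.3% in KD6. Of the 6 members, 5, 4 and 1 stood apart in this way. These counts included both miR-708 arms in WT and KD3, and miR-708-3p alone made up the count in KD6.

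miR-151-3p had a log2 ratio of 0.87 ± 0.24 (SE, n = 3 libraries per group, adjusted p 0.0028) in WT, 1.83-fold higher in IP. In KD3 it was 0.69 ± 0.24 (adjusted p 0.0143) and in KD6 0.54 ± 0.24 (adjusted p 0.0473). It was thus the member recovered most by the antibody, above 66.9%, 63.3% and 56.7% of all miRNAs tested. The WT call held under every scaling and without each library in turn. The KD3 call was lost without replicate A of the KD3 input (0.65, adjusted p 0.0521) or replicate B of the KD3 IP (0.61, adjusted p 0.0541), and the KD6 call without replicate B or C of the KD6 input (0.39 and 0.31) or replicate B of the KD6 IP (0.44). Scaling also mattered: by total mapped reads the values were 0.54, 0.10 and −0.42, and by library size alone 0.72, 0.52 and −0.09.

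These shifts followed those of all miRNAs. The median log2 ratio of all miRNAs was −0.04, −0.03 and −0.0044 in WT, KD3 and KD6 with median ratios, by library size alone −0.19, −0.18 and −0.81, and by total mapped reads −0.38, −0.61 and −1.16. In KD6, 50.3% of the miRNAs called were higher in IP with median ratios, 34.1% by library size alone and 27.3% by total mapped reads, and in KD3 48.7% with median ratios and 33.2% with total mapped reads. Relative to the median of the same fit, miR-151-3p stood 0.91, 0.71 and 0.55 higher with median ratios, 0.91, 0.70 and 0.72 higher by library size alone, and 0.92, 0.71 and 0.74 higher by total mapped reads.

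For miR-151-5p, from the other arm, the log2 ratio was 0.03 ± 0.62 in WT (adjusted p 0.965) and −0.17 ± 0.63 in KD3 (adjusted p 0.824). In KD6 it was −1.56 ± 0.65 (adjusted p 0.0367). The KD6 value rested on single libraries: it was −2.40 (adjusted p 0.0018) without replicate A of the KD6 input, and without replicate C of the KD6 input it was 0.01 (adjusted p 0.995), and the call was also lost without replicate A (−1.38, adjusted p 0.107) or B (−1.22, adjusted p 0.136) of the KD6 IP and in DESeq2 (−1.45, adjusted p 0.135).

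With median ratios the arms of miR-28a lay on opposite sides of zero, which did not hold for every scaling. miR-28a-5p was at −0.55 ± 0.26 in WT cells, which did not pass (adjusted p 0.0636), and its log2 ratios of IP to input were −0.85 ± 0.26 within KD3 (adjusted p 0.0059) and −0.88 ± 0.27 within KD6 (adjusted p 0.0054), 1.81-fold and 1.84-fold lower in IP. miR-28a-3p was at 0.31 ± 0.18, 0.32 ± 0.18 and 0.17 ± 0.18 (adjusted p 0.136, 0.118 and 0.43), none past the threshold, and these values turned negative with total mapped reads (−0.03, −0.26 and −0.86). In KD6 the value then passed as lower in IP (adjusted p 0.0024), as it did at −0.52 by library size alone (adjusted p 0.0481), while relative to the median of the same fits it stood 0.30 and 0.28 higher. The WT value of miR-28a-5p passed without replicate A of the WT input (−0.69, adjusted p 0.0433) and under each of the other scalings, with TMM factors (−0.86, adjusted p 0.014), library size alone (−0.70, adjusted p 0.0491), total mapped reads (−0.88, adjusted p 0.0191) and the largest row with TMM factors (−0.88, adjusted p 0.0126). Relative to the median of the same fit, this WT value hardly moved. It was −0.51 with median ratios, TMM factors and library size alone, −0.50 by total mapped reads and −0.53 with the largest row. The KD6 call was lost without replicate A of the KD6 IP (−0.65, adjusted p 0.0505).

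Of the miR-708 arms, the 3p arm was lower in IP in every condition and the 5p arm passed in WT and KD6. The 5p arm had passed the filter through the inputs, with at least 10 reads in 0 of 9 IP libraries. The 3p arm had done so mainly through them, with 4 of 9. miR-708-3p was lower by 2.41 ± 0.56 on the log2 scale in WT (log2 ratio −2.41, adjusted p 0.00066), with −3.52 ± 0.62 in KD3 (adjusted p 3.5e-05) and −2.96 ± 0.65 in KD6 (adjusted p 0.00035), or 5.32-fold, 11.5-fold and 7.79-fold. These calls held under every alternative and without each library, all resting on the same low IP counts, and so these fits add no separate support. Without replicate A of the WT IP the WT value was −3.75, or 13.5-fold. miR-708-5p had −2.64 ± 0.85 in WT (adjusted p 0.0091), −1.33 ± 0.76 in KD3 (adjusted p 0.119) and −2.07 ± 0.81 in KD6 (adjusted p 0.0273). Leaving out replicate C of the WT IP ended the WT call (−1.93, adjusted p 0.0566) and leaving out replicate A took it to −3.76, and the KD6 call was lost without replicate B or C of the KD6 input (−1.81 and −2.09) or of the KD6 IP (−1.59 and −1.31), and the value was −4.96 without replicate A of the KD6 IP. All IP libraries together held 28 estimated reads of miR-708-5p.

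The choice of libraries, scaling and tool moved several of these values. By total mapped reads, where the median of all miRNAs in KD6 was −1.16, the KD6 values were −1.98 for miR-28a-5p, −2.73 for miR-151-5p, −3.31 for miR-708-5p and −4.05 for miR-708-3p. By the same scaling miR-28a-5p and miR-708-3p were at −1.44 and −4.11 in KD3, and miR-708-5p passed there (−1.91, adjusted p 0.0275). Relative to the median of the fit, miR-708-5p was at −1.30 in KD3 by total mapped reads and also with median ratios. Where only the libraries compared entered the fit, the KD6 calls of miR-28a-5p, miR-151-5p, miR-151-3p and miR-708-5p were lost (adjusted p 0.0596, 0.0781, 0.164 and 0.103, edgeR), and miR-28a-5p in WT (−0.67, adjusted p 0.0034) and miR-708-5p in KD3 (−1.51, adjusted p 0.0093) passed. DESeq2 did not call miR-151-3p (adjusted p 0.0619) or miR-708-5p (adjusted p 0.0839) in KD6. With TMM factors miR-151-3p was not called in KD3 (adjusted p 0.0571) or KD6 (adjusted p 0.094). The medians of all miRNAs were then −0.26 and −0.35, and miR-151-3p stood 0.70 and 0.74 above them.

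**Figure D2:**
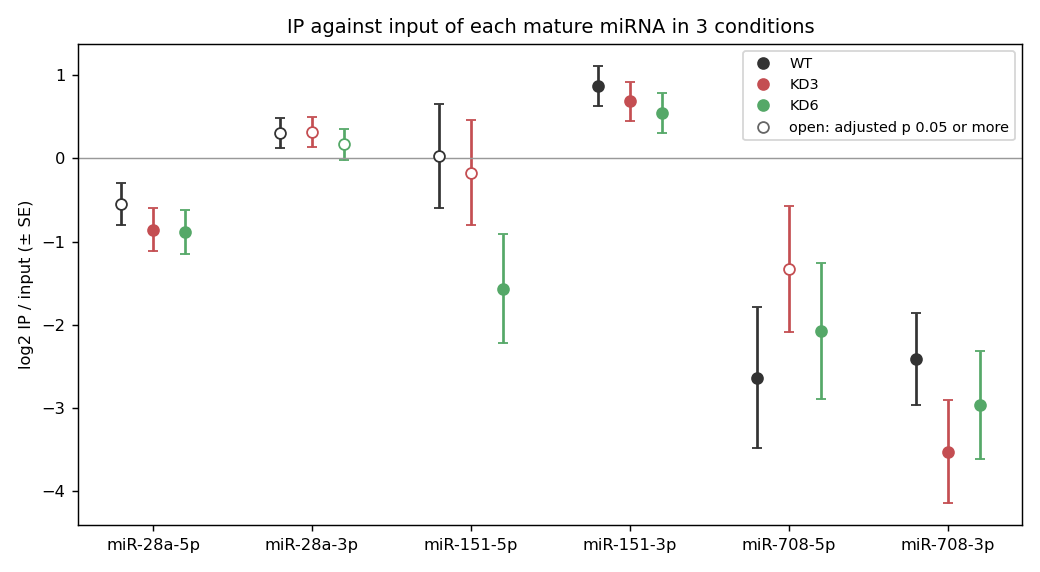
Log2 ratio of IP to input ± SE (y axis) of the 6 members in WT (black), KD3 (red) and KD6 (green), 3 libraries per group, filled where the adjusted p is under 0.05 (edgeR). miR-151-3p is above zero and filled in the 3 conditions (0.87, 0.69 and 0.54), both miR-708 arms are below zero, and the arms of miR-28a lie on opposite sides of it with this scaling, though not with total mapped reads. The miR-708 arms passed the filter on low counts by leaning on the inputs, which favours a value below zero.

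The second comparison was of the enrichment itself between knockdown and WT. No member passed in KD3 against WT or in KD6 against WT. The largest change was that of miR-151-5p in KD6, −1.60 ± 0.90 (adjusted p 0.303), which again rested on replicate C of the KD6 input, at −0.02 without it. It passed without the filter on low counts (−1.59, adjusted p 0.0048). For miR-151-3p the changes were −0.19 ± 0.33 in KD3 and −0.33 ± 0.34 in KD6 (adjusted p 0.9997 and 0.611, edgeR). The KD6 value reached −0.96 (adjusted p 0.0468) with total mapped reads, where the median of all miRNAs was itself at −0.56. miR-708-5p was at 1.31 ± 1.17 and 0.56 ± 1.20, and miR-708-3p at −1.11 ± 0.85 and −0.55 ± 0.87, errors too wide to place a change of either arm. Over all miRNAs 0% passed in KD3 and 0% in KD6 (16 and 119 of 550 at an unadjusted p under 0.05, and 0 of 1212 and 32 of 413 in DESeq2).

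The third comparison was of input levels, without IP. No member passed in KD3 or KD6 against WT. miR-28a-5p was at 0.37 ± 0.25 in KD3 and 0.17 ± 0.26 in KD6, and miR-28a-3p at 0.05 ± 0.18 and −0.10 ± 0.18. miR-151-3p was at −0.34 ± 0.24 in KD3 (adjusted p 0.841), where its libraries did not overlap those of WT, and passed where only the libraries compared entered the fit (−0.33, adjusted p 0.026). In KD6 it was at 0.11 ± 0.24, and at −0.34 without the shallow replicate A. miR-708-3p was at 0.46 ± 0.47 in KD3, again without overlap, and at 0.27 ± 0.52 in KD6. Of all miRNAs, 30.7% were likewise without overlap between KD3 and WT input. Over all miRNAs, 0% passed in KD3 (44 of 550 at an unadjusted p under 0.05, 12 of 319 in DESeq2, and 1 of 550 with the replicate letter as a block) and 3.09% in KD6. In RNA from a whole culture, fewer cells with a miRNA and less of it per cell cannot be told apart. Pus1 mRNA was not analysed here, so the size of the knockdown is not given.

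The arms of each hairpin were then compared within libraries. In inputs, miR-28a-5p made up 20.5%, 24.1% and 29.8% of the reads of its hairpin in WT, 28.7%, 29.8% and 29.3% for KD3 and 22.3%, 28.1% and 33.5% in KD6. After IP its share was 15.5%, 18.2% and 12.9% in WT, 17.5%, 13.2% and 16.1% for KD3 and 14.8%, 24.5% and 10.1% in KD6. The share was lower in every IP library than in every input library of WT and of KD3, where arm ratios did not overlap for 56.6% and 56.2% of all hairpins (41.2% in KD6), and in KD6 replicate B of the IP (24.5%) exceeded replicate A of the input (22.3%, from 150.5 reads).

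As the log2 ratio of 5p to 3p, with 0.5 reads added to each arm, miR-28a averaged −1.62 ± 0.36 in input of WT cells and −2.45 ± 0.30 in their IP (SD, n = 3), −1.27 ± 0.04 and −2.44 ± 0.24 in KD3, and −1.37 ± 0.39 and −2.44 ± 0.77 in KD6. Over the 3 conditions the ratio was 1.03 lower in IP on the log2 scale (mean difference −1.03, 9 libraries of each kind). Under a two-sided exact permutation test of IP and input labels within conditions this gave p = 0.0005, or 0.0015 adjusted over the 3 hairpins, where 8000 arrangements allow no p below 0.00025. It lay between −1.16 and −0.91 without each library in turn, with p from 0.00025 to 0.0015. Within 1 condition 3 libraries against 3 cannot go below 0.1, which was the value in WT and in KD3, and 0.2 in KD6. The permutation test was run on the 3 hairpins only, so how many other hairpins would reach such a p is not known.

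In a model of both arms over the 226 hairpins (edgeR quasi-likelihood, Benjamini-Hochberg over all hairpins), the log2 change of the 5p to 3p ratio of miR-28a was −0.84 ± 0.35 in WT (SE, adjusted p 0.0582), −1.17 ± 0.35 in KD3 (adjusted p 0.0085) and −1.11 ± 0.37 in KD6 (adjusted p 0.0173). KD3 and KD6 passed, at 2.26-fold and 2.15-fold lower, against 42% of all hairpins in WT, 43.8% in KD3 and 38.1% in KD6. The WT value passed without replicate A of the WT input (−1.01, adjusted p 0.0451). The KD6 call was lost when replicate C was left out of the KD6 input (−0.91, adjusted p 0.0893) or of the KD6 IP (−0.74, adjusted p 0.115), and where only the libraries compared entered the fit (adjusted p 0.165). That fit called WT (adjusted p 0.0088), and without a filter on reads KD6 did not pass (adjusted p 0.0528).

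A shift of this size was common. The quartiles of all hairpins were −1.30 and 2.11 in WT. They were −1.22 and 2.12 for KD3 and −1.56 and 3.00 for KD6, and 34.1%, 25.7% and 31% of hairpins had a lower value than miR-28a.

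**Figure D3:**
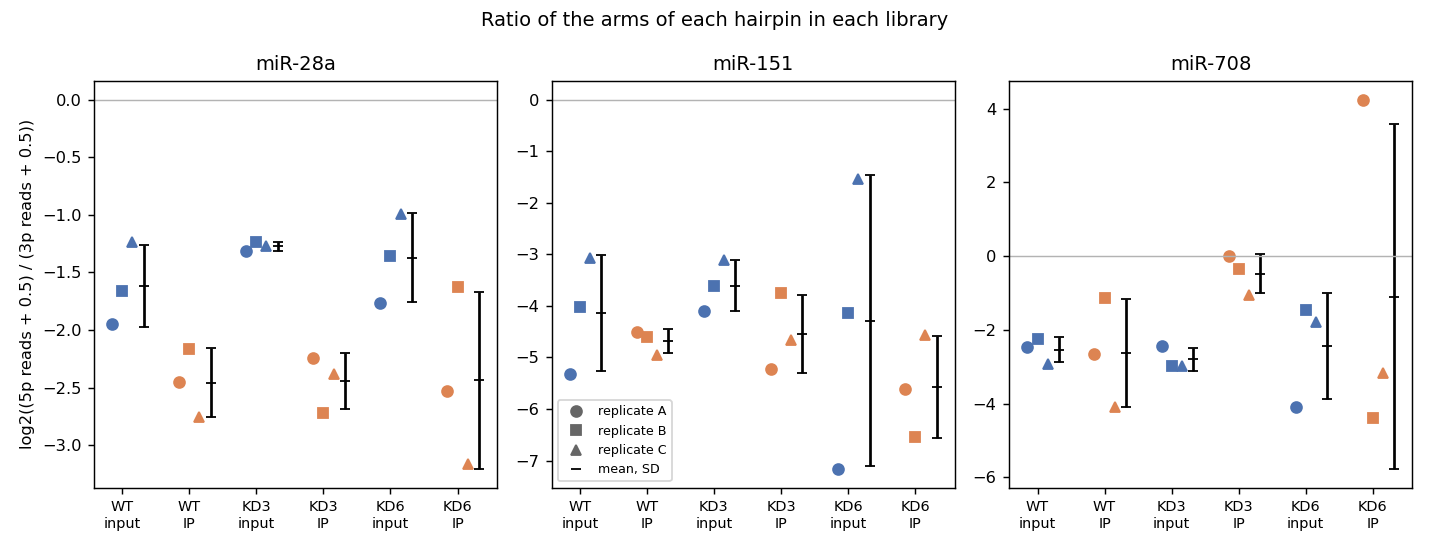
Log2 ratio of 5p to 3p reads, with 0.5 added to each (y axis, one scale per panel), of the 3 hairpins in each of 18 libraries, input in blue and IP in orange, letters A to C as circle, square and triangle, with the mean ± SD of 3 libraries. miR-28a falls from means of −1.62, −1.27 and −1.37 in input to −2.45, −2.44 and −2.44 in IP, whereas the IP values of miR-708 range from −4.39 to 4.25.

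For miR-151 the 5p arm had a small and variable share. It was 2.43%, 5.80% and 10.7% in replicates A, B and C of WT input, 5.50%, 7.59% and 10.4% of KD3 input and 0.62%, 5.35% and 25.5% of KD6 input. In IP it was 4.24%, 3.93% and 3.13% in WT, 2.58%, 6.93% and 3.78% for KD3 and 1.999%, 1.05% and 4.06% in KD6. The ranges overlapped in every condition, and the spread in WT and KD3 inputs was that of the 5p arm, the 3p arm varying only from 1694 to 1923 CPM in WT input and from 1369 to 1562 CPM in KD3 input.

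The mean difference in the log2 arm ratio of miR-151 was −0.93 (exact permutation p = 0.14, adjusted 0.21). Without each library in turn it lay between −1.41 and −0.47. The value furthest from zero, −1.41, came without replicate A of the KD6 input, with its 4 reads of the 5p arm (exact permutation p = 0.012, unadjusted). In the model the changes were −0.56 ± 0.68 in WT, −0.94 ± 0.68 in KD3 and −1.79 ± 0.77 in KD6 (adjusted p 0.534, 0.299 and 0.065). The KD6 value passed without replicate A of the KD6 input (−2.70, adjusted p 0.0023) and with replicate C left out of the KD6 IP (−2.37, adjusted p 0.0235), and it was −0.53 (adjusted p 0.56) without replicate C of the KD6 input. It also passed without a filter on reads (adjusted p 0.00057), and the KD3 value did with only the libraries compared (adjusted p 0.0091).

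miR-708 had too few IP reads for a ratio of its arms. Summed over 3 libraries, the 5p and 3p arms had 93.2 and 546.2 reads in WT input, 102.5 and 696.8 in KD3 input and 94.9 and 308.4 in KD6 input. After IP, WT libraries held 6 reads of 5p and 41.7 of 3p, KD3 libraries 12 and 21, and KD6 libraries 10 and 23.2. The 5p share was 11.5% to 17.2% in WT input and 11.1% to 15.4% in KD3 input. In KD3 IP it was 29.7% to 46.7%, from 7.5, 7 and 18.5 reads of both arms in replicates A, B and C. No KD3 IP library overlapped a KD3 input library, and arm ratios likewise did not overlap in KD3 for 56.2% of all hairpins. The 5p share overlapped in WT, with 0% to 33.3% in IP, and in KD6, with 0% to 26.4% in input and 0% to 100% in IP.

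The KD3 change of miR-708 was 2.20 ± 1.14 (edgeR, adjusted p 0.13), which did not pass. It passed with only the libraries compared (2.17, adjusted p 0.0246). Both values rest on 12 reads of 5p and 21 of 3p in KD3 IP, too few to read a direction from. In WT and KD6 the values were −0.15 ± 0.93 and 0.69 ± 1.29 (adjusted p 0.922 and 0.7). Over the conditions the mean difference was 1.19 (exact permutation p = 0.246, adjusted 0.246). With 5 reads added to each arm in place of 0.5 it was 1.46 with an exact permutation p of 0.0025, and adding reads by its construction draws the ratio of the IP libraries, which held few reads, towards zero.

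**Figure D4:**
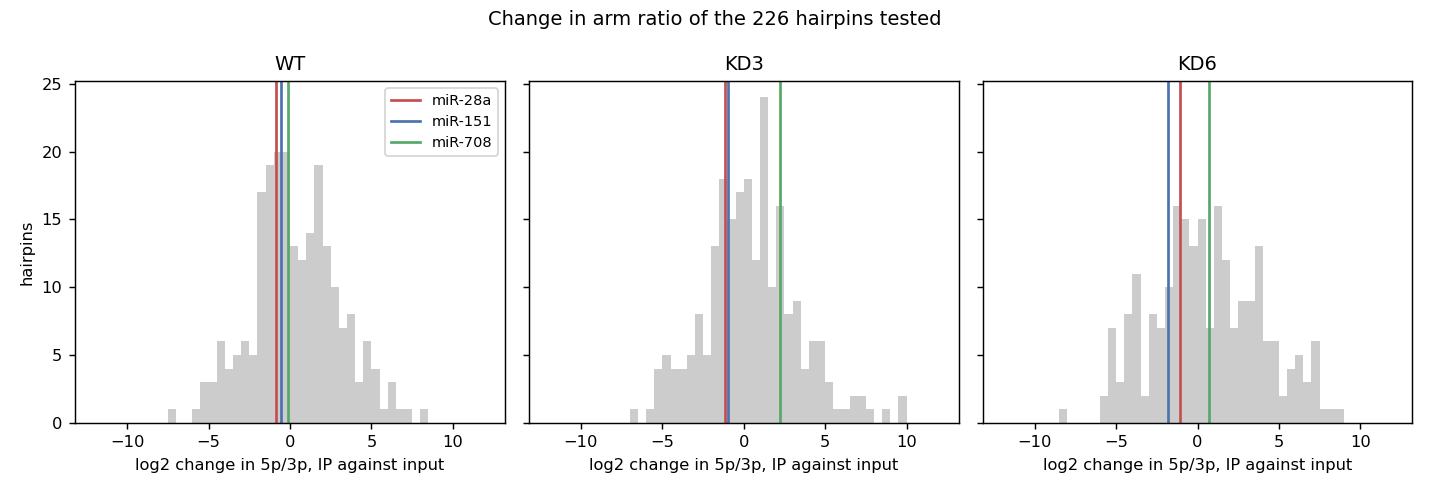
Number of hairpins (y axis) by log2 change in the 5p to 3p ratio between IP and input (x axis, bins of 0.5) in WT, KD3 and KD6, for the 226 hairpins tested, with miR-28a, miR-151 and miR-708 as red, blue and green lines. The 3 lines lie well inside the distribution, whose medians are 0.06, 0.36 and 0.34.

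The shift between IP and input was not found to differ between conditions for any of the 3 hairpins. The changes in KD3 and KD6 against WT were −0.33 ± 0.50 and −0.27 ± 0.51 for miR-28a, −0.38 ± 0.96 and −1.23 ± 1.02 for miR-151, and 2.36 ± 1.64 and 0.85 ± 1.70 for miR-708. Among all hairpins 0% passed in KD3 and 0% in KD6 (6 and 25 of 226 at an unadjusted p under 0.05, and 0 and 1 in limma). In inputs alone the arm ratio of miR-28a was 0.34 ± 0.35 higher in KD3 than in WT and 0.28 ± 0.36 higher in KD6, that of miR-151 0.52 ± 0.68 and 0.38 ± 0.75, and that of miR-708 −0.25 ± 0.88 and 0.66 ± 0.95, none past the threshold. Of all hairpins 0% passed in KD3 inputs and 0% in KD6 inputs (8 and 11 at an unadjusted p under 0.05, and 0 and 3 in limma).

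Other miRNAs of the miR-28 name bear on miR-28a-5p, since reads that match several loci were divided among them. miR-28b had 17.9 estimated reads in all 18 libraries and did not pass the filter. miR-28c, on chr15:53614205-53614279 in an intron of Samd12, had 1257 estimated reads. It was at 9.38 ± 3.08 CPM in input and 5.32 ± 0.69 CPM in IP of WT cells (SD, n = 3), at 13.0 ± 0.74 and 5.57 ± 0.67 CPM in KD3, and at 14.6 ± 4.98 and 4.82 ± 2.71 CPM in KD6. Its log2 ratio was −0.81 ± 0.34 in WT (SE, adjusted p 0.0376), −1.20 ± 0.35 in KD3 (adjusted p 0.0043) and −1.43 ± 0.39 in KD6 (adjusted p 0.0025). The values of miR-28c and miR-28a-5p are not independent where reads were divided between them, and both are uncertain to that extent.

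The miRNAs with the pattern most like the more abundant arm of each hairpin were named by Pearson's r of log2 CPM over the 18 libraries, among 150 miRNAs with a mean of at least 100 CPM. The libraries share their IP or input origin, so r is a description without a test. For miR-151-3p they were miR-99b-3p (r 0.90), miR-5099 (0.87) and miR-1964-3p (0.85). Their log2 IP ratios in WT were 0.40, 2.14 and 2.03 beside 0.87 for miR-151-3p. For miR-28a-3p they were miR-100-5p (r 0.75), miR-30c-2-3p (0.74) and miR-134-5p (0.72), with WT ratios of 0.35, 0.98 and 1.06 beside 0.31 for miR-28a-3p. For miR-708-3p they were miR-24-2-5p (r 0.92), miR-152-3p (0.92) and miR-378d (0.90), with log2 IP ratios in WT of −3.75, −2.86 and −2.40 beside −2.41 for miR-708-3p.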

How the data were processed

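Small RNA libraries were made with the NEBNext small RNA kit from size-fractionated small RNA. The authors aligned and quantified reads with SeqImp (version not given in the sources used here), with mm10, Ensembl 89 and miRBase 21, and deposited estimated counts per mature miRNA and precursor locus, not normalized, in which reads matching several loci are divided; 47.0% of non-zero values were not whole. A second set of deposited estimated counts, of distinct read sequences, was not tested.

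Here counts were summed per mature miRNA, rounded, and tested in edgeR 4.0.16 (R 4.3.3; quasi-likelihood, median-ratio factors, filterByExpr, 6 group means, Benjamini-Hochberg, threshold 0.05) in 7 comparisons. Arm ratios were tested in edgeR with 5p and 3p columns per library and library as a term, over hairpins with a mean of at least 10 reads and each arm in at least 3 libraries, and by exact permutation. Scripts were tested on simulated data. Alternatives were TMM, library size, total mapped reads, no filter, the largest row per miRNA, DESeq2 1.42.0, limma 3.58.1, fewer libraries, a replicate block and each library left out. The row of total mapped reads, of which 5.47% to 38.2% lay outside miRNA rows, stayed out of tests.

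The members and lists were chosen with earlier results of these data known. Named miRNAs were the 6 members, miR-28b, miR-28c, any miRNA with a member's seed, and the 3 most correlated with each more abundant arm. Same-letter libraries deviated together in KD3 and WT inputs (r of 0.60, 0.20 and 0.35 for A, B and C over 189 miRNAs), which pairs them by a threshold of 0.1, and not in the other comparisons (for example 0.02, −0.15 and −0.12 for IP and input in WT). No pair of libraries was identical. Mature sequences are from RefSeq (GRCm38.p6), the assembly of mm10; 4 of the 6 members matched.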

Additional observations from a re-analysis of the deposited data

How the results depend on the processing

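Calls of IP against input over all miRNAs stayed within 1.5 times of the main counts, the lowest being 272 of 421 in KD6 with only the libraries compared, against 392 of 550. Other counts moved further. The change in enrichment in KD6 against WT had 51 calls with total mapped reads, 14 without the filter on low counts, 6 with the largest row per miRNA and TMM factors, 32 in DESeq2, and 0 to 57 with each library left out (14 without replicate A of the KD6 input and 57 with replicate C left out of the KD6 IP). The change in KD3 had 1 of 1212 without the filter. Inputs of KD3 against WT had 1 of 550 with library size alone, 5 of 1212 without the filter and 1 of 550 with the replicate letter as a block. They had 12 of 319 in DESeq2 and 75 of 530 where only the libraries compared entered the fit. Inputs of KD6 against WT had 27 of 534 with the largest row and TMM factors, 31 of 413 in DESeq2, and 6 to 31 with each library left out. For arm ratios, IP against input in KD6 had 55 calls of 152 hairpins with only the libraries compared, and the change in KD3 had 1 of 426 without the filter. The change in KD6 had 1 of 226 in limma and 0 to 7 with each library left out. Inputs in KD6 had 3 of 226 in limma and 1 of 226 in limma with the replicate block. The permutation result for miR-151 ranged from −1.41 to −0.47 with each library left out, and that for miR-708 was 1.46 with 5 reads added. The cause of these moves was not tested. The block changed no call of a member in the miRNA fits, and in limma took the miR-28a arm ratio in KD6 to an adjusted p of 0.0588.

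Some signs turned, 2 of them of values past the threshold: miR-151-3p in KD6 by library size alone and total mapped reads, and miR-151-5p in KD6 without replicate C of the KD6 input. With TMM factors, IP against input became −0.30 for miR-151-5p in WT and −0.070 for miR-28a-3p in KD6, and input contrasts became −0.086 for miR-28a-3p in KD3 and −0.031 and −0.22 for miR-28a-5p and miR-151-3p in KD6. With the largest row as well these were −0.32, −0.040, −0.087, −0.042 and −0.25, and miR-28a-3p in WT was −0.022. With library size alone, IP against input was −0.12 for miR-151-5p in WT and −0.52 and −0.085 for miR-28a-3p and miR-151-3p in KD6, changes were −0.00397 for miR-28a-3p in KD3 and −0.19 for miR-708-5p in KD6, and the KD3 input contrast of miR-28a-3p was −0.061. With total mapped reads, IP against input was −0.025, −0.26 and −0.86 for miR-28a-3p in WT, KD3 and KD6, −0.30 for miR-151-5p in WT and −0.42 for miR-151-3p in KD6, changes were −0.24 for miR-28a-3p in KD3 and −0.35 for miR-708-5p in KD6, and the KD3 input contrast of miR-28a-3p was −0.12. The block gave 0.12 for miR-151-5p in KD3 inputs. Only the libraries compared gave −0.11 for miR-151-5p in WT and −0.027 for the change of miR-28a-3p in KD3. Limma gave −0.15, with and without the block, for the arm ratio of miR-151 in KD6 inputs.

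With each library left out, IP against input of miR-151-5p ranged from −0.38 to 0.72 in WT, −0.83 to 0.19 in KD3 and −2.40 to 0.012 in KD6, and of miR-28a-3p from −0.21 to 0.35 in KD6. Changes in KD3 ranged from −0.90 to 0.20 for miR-151-5p, −0.083 to 0.15 for miR-28a-3p and −1.56 to 0.24 for miR-708-3p, and in KD6 from −1.09 to 0.82 for miR-708-3p and −2.36 to 1.70 for miR-708-5p. Input contrasts ranged from −0.44 to 0.65 for miR-151-5p and −0.096 to 0.12 for miR-28a-3p in KD3, and from −0.34 to 0.34 for miR-151-3p, −0.93 to 1.31 for miR-151-5p and −0.020 to 0.32 for miR-28a-5p in KD6. Arm ratios of miR-708 ranged from −0.70 to 0.27 in WT and −2.50 to 1.75 in KD6, and their change in KD6 from −2.34 to 1.90. For miR-151 the change ranged from −0.92 to 0.20 in KD3 and −2.14 to 0.033 in KD6, and the input contrast from −0.061 to 1.06 in KD3 and −0.88 to 1.29 in KD6. The change of the miR-28a arm ratio in KD6 ranged from −0.68 to 0.096. Depth limits miR-708 most, whose arms had 0 to 28.5 reads in an IP library.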
